A study of Homo sapiens with 60 samples.

Results

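The 36 genes described here encode CLK kinases and splicing regulators: the 4 CDC2-like kinases CLK1 to CLK4, 11 SR proteins, the 2 TRA2 proteins, 10 hnRNP proteins, 3 LUC7-like proteins of the U1 particle, the splicing factors RBM5 and RBM39, the cold-induced RNA-binding proteins RBM3 and CIRBP, and the nuclear speckle proteins PNISR and SON. They were taken by symbol from a table of 60675 genes, and were chosen by their low-dose counts in these data: the set was put together around CLK1, which differed from the vehicle at the low dose of every extract. Low dose against vehicle is therefore given as a description, without p-values, and counts of calls there are printed only beside the share of all genes. All 36 passed the filter on low counts and are among the 16978 genes tested.

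HT29, an established human colorectal adenocarcinoma line, was treated for 24 h with the vehicle DMSO or with an extract of a herb or a herbal formula, and polyadenylated RNA was sequenced. Per the labels, Menthae Herba, Saposhnikoviae Radix, Saengmaek-san and Guibi-tang were given at 500, 100 and 20 µg/mL (High, Medium and Low) with 3 libraries each, and Soyo-san at the same doses with 2 each. Polygalae Radix was given at 380, 76 and 15.2 µg/mL and Aucklandiae Radix at 370, 74 and 14.8 µg/mL, with 2 libraries each. Okbyeongpung-san at 500, 100 and 20 µg/mL has 1 library per dose and 3 vehicle libraries serve as the control. All groups are of the same line. DMSO is labelled 0.1% in the sample labels and 2% in the design text, and the wortmannin control it names was not analysed here. Whether replicates were separate cultures is not stated in the labels, so p-values speak only of the spread among these libraries, and that spread may be technical.

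CLK kinases phosphorylate the arginine-serine domains of SR proteins in the nucleus, which releases SR proteins from speckles and changes which exons they help to include. SR proteins mostly promote exon recognition, hnRNP proteins often oppose it, and many genes of both families control their own RNA through exons or retained introns that lead to decay. CLK1 pre-mRNA is held in part as an intron-retaining nuclear form that is spliced on demand, and a count per gene, as used here, does not tell such forms from the coding mRNA.

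Promoters of CLK1 and CLK4 are printed because these are the 2 CLK kinases whose levels differed most from the vehicle at low dose. The 250 bases before the annotated start are given 5′ to 3′ on the gene's strand, from RefSeq on GRCh38.p14. CLK1 lies on the minus strand at chr2:200864659-200864908 and CLK4 on the minus strand at chr5:178627051-178627300. Capitals mark CGTCA, the reverse complement of TGACG, the core of the cAMP response element.
CLK1: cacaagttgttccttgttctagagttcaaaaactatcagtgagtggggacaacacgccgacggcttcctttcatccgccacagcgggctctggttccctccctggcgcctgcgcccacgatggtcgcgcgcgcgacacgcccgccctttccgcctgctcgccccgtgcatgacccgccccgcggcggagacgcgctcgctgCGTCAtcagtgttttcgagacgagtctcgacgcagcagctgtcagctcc
CLK4: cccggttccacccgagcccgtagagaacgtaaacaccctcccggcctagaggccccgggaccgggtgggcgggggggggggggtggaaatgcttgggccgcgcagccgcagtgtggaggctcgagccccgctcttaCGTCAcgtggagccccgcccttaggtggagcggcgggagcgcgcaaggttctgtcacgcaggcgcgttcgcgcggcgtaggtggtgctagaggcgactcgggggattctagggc
The capitals begin 49 bases before the start of CLK1 and 114 before that of CLK4. TGACG on either strand stands in 24.6% of 35116 promoter windows of 300 bases (250 before and 50 after the start). By gene it stands in 28.4% of 27305 genes and in 19 of the 32 members in the table. The full element TGACGTCA stands in 2.25% of genes and in 0 of the 32 members. SRSF2, RBM39, TRA2A and HNRNPA1 were not matched.

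A longer string, CCATTTTGT, stands in the windows of both kinases and of 4 other members. It was picked after these sequences had been seen, as 1 of 2 strings of 9 bases that the CLK1 and CLK4 windows share. Each line gives 29 bases of RefSeq GRCh38.p14 on the gene's strand, with the string in capitals.
CLK1 (chr2:200864642-200864670, minus): gctgtcagctCCATTTTGTtgttggtgcg
CLK4 (chr5:178627019-178627047, minus): ggcgctgccgCCATTTTGTggggtgtttg
SRSF5 (chr14:69767100-69767128, plus): gacgcgccctCCATTTTGTggagcgccag
HNRNPC (chr14:21269408-21269436, minus): gactcgggggCCATTTTGTgaagagacga
LUC7L3 (chr17:50719586-50719614, plus): cgcgcggcggCCATTTTGTcttgtcggct
RBM5 (chr3:50088940-50088968, plus): tcggcggaggcgCCATTTTGTgtagccgc
On either strand it is found in 0.436% of all windows (153 of 35116) and, by gene, in 146 of 27305 (0.535%). At low dose against the vehicle, described below, these 6 members lay on both sides of 0: HNRNPC ran from -0.19 to -0.11 on the log2 scale and LUC7L3 from -0.17 to -0.01, while the other 4 were above 0 in every extract. In GENCODE 29 the SRSF5 gene starts at 69726900, so its string is near the RefSeq start and not near that one. A match of letters is a description and not a binding site.

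Replicate 2 of Saposhnikoviae Radix at the low dose was left out of the fit. It correlated with its closest replicate at 0.844, where the lowest such value of any other library was 0.9956 (Saposhnikoviae Radix Medium replicate 1), and its mitochondrial share was 3.33% (6.19% to 12.3% elsewhere). Many of its members were far from those of the 2 replicates kept, while others, such as SRSF4 (109 CPM against 106 to 110), were close. CLK1 stood at 6.24 CPM against 49.1 to 53.1, CIRBP at 174 against 46.7 to 49.4, SRSF11 at 916 against 196 to 199 and LUC7L3 at 1199 against 168 to 170. CPM is the count scaled to library size, with TMM factors. The 59 libraries kept had 18690454 to 36796397 counts. All 9 markers of HT29 epithelium were above 1 CPM in the median library, with summed levels of 12424 to 14826 CPM in the vehicle and 7409 to 14152 CPM in the extracts. Of 5 fibroblast markers 1 passed 1 CPM (COL1A1), the sum was 1.99 to 2.92 CPM in the vehicle and 1.51 to 3.43 CPM in the extracts, and the median of COL1A2 and DCN was 0. Of 5 blood cell markers 1 passed 1 CPM (CD68, a lysosomal protein also made outside blood cells), the sum was 6.38 to 9.11 CPM in the vehicle and 3.73 to 48.2 CPM in the extracts, and the median of PTPRC and CD3E was 0.

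Per kilobase of merged exons, hnRNP and SR genes were the most abundant members and CLK genes among the least. In the vehicle HNRNPA1, which binds exonic silencers, led with 247 CPM per kb, followed by HNRNPA2B1 with 182, HNRNPK with 141, SRSF2 with 124 and SRSF1 with 115. Among the 6 lowest were CLK1 (6.21 CPM per kb, rank 32), CLK3 (2.57, rank 35) and CLK4 (1.26, rank 36), while CLK2 stood at 8.36. The lengths count every annotated exon once, and CLK3 has 20443 annotated exon bases against 5170 for CLK1, so the per-length level of CLK3 is divided by more bases than most of its transcripts hold.

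CLK1 (ENSG00000013441, GRCh38 chromosome 2, 200853009 to 200864744) was lowest in the vehicle and higher in every library treated with an extract. The vehicle libraries had 29.9, 35.2 and 31.1 CPM. The 18 low-dose libraries ran from 49.1 to 59.5 CPM with a median of 54.4, the 19 medium-dose libraries from 42.2 to 59.7 CPM with a median of 51.6, and the 19 high-dose libraries from 44.1 to 56.0 CPM with a median of 51.7. No extract library overlapped the vehicle at any dose, and the lowest extract library was 1.20 times the highest vehicle library. Of the genes tested, 21 (0.124%) had all 56 extract libraries above the vehicle, and only ENSG00000280800 and ENSG00000280614, which carry no symbol in the tables, had a wider gap than CLK1. The vehicle and low-dose libraries in this ranking are those by which CLK1 was chosen, so its place is a description only. RBM5 was the only other member among the 21, with a ratio of 1.01. No member lay wholly below the vehicle, where 0.3% of genes did.

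**Figure D1:**
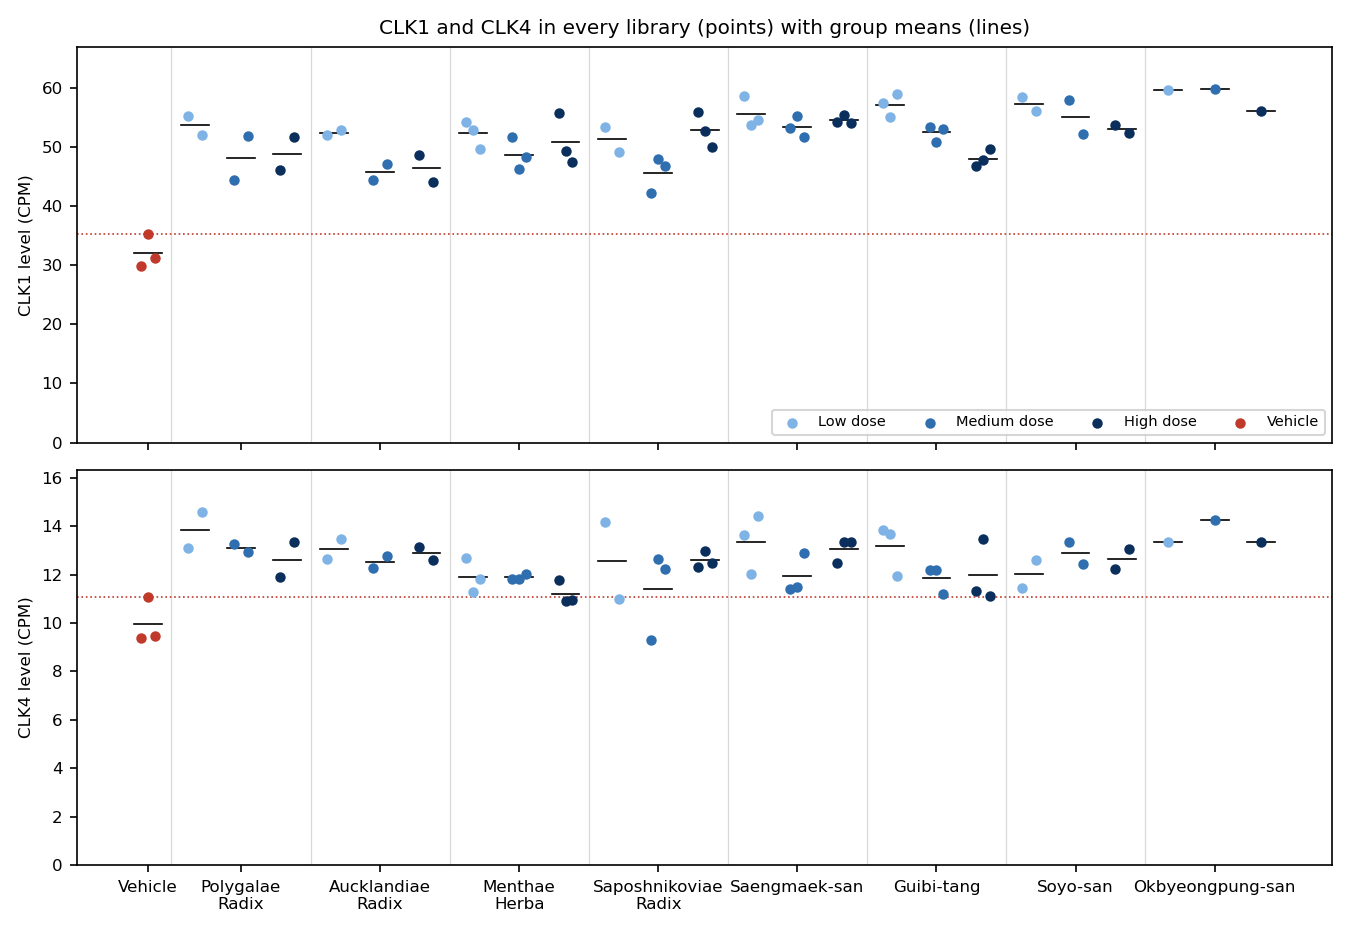
Level in CPM (y axes, from 0) of CLK1 (top) and CLK4 (bottom) in each library (points) by extract and dose (x axis), with a short line at each group mean and a dotted line at the highest vehicle library. All 56 CLK1 extract libraries lie above the dotted line, at 42.2 to 59.7 CPM, as do 52 of the 56 CLK4 libraries.

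At low dose the 7 replicated extracts gave CLK1 levels that differed little from each other. Soyo-san Low had 58.4 and 56.1 CPM and Guibi-tang Low 57.4, 55.0 and 58.9 CPM. Saposhnikoviae Radix Low, at the lower end, had 53.4 and 49.1 CPM. Group means ran from 51.3 ± 3.01 CPM (SD, n = 2; Saposhnikoviae Radix) to 57.3 ± 1.60 (n = 2; Soyo-san), against 32.1 ± 2.77 (n = 3) in the vehicle. The fitted log2 differences from the vehicle lay between 0.68 ± 0.07 SE and 0.84 ± 0.07, which is 1.60-fold to 1.79-fold. With the outlying library the difference of Saposhnikoviae Radix Low was 0.20 in place of 0.68. Okbyeongpung-san, with 1 library per dose, had 59.5, 59.7 and 56.0 CPM at Low, Medium and High, which includes the highest CLK1 level of the series. In 6 of the 8 extracts the low dose had the highest CLK1 mean of the 3 doses. Low-dose values chose CLK1, which favours this order, so no dose trend is read from it. High was above Medium in 5 of the 8 extracts, where Okbyeongpung-san counts with 1 library per dose.

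CLK4 (chromosome 5, 178602664 to 178630615), the member closest in kind to CLK1, followed it at a smaller size. The vehicle had 9.38, 11.1 and 9.48 CPM and the 18 low-dose libraries 11.0 to 14.6 CPM, with a median of 12.9. Polygalae Radix Low was highest of the replicated groups, with 13.1 and 14.6 CPM, and Saposhnikoviae Radix Low overlapped the vehicle, with 14.2 and 11.0 CPM. In all, 52 of 56 extract libraries were above the vehicle range, 3 were within it and 1 was below it. The low-dose log2 differences ran from 0.27 ± 0.09 SE (Menthae Herba) to 0.48 ± 0.10 (Polygalae Radix). With the outlying library that of Saposhnikoviae Radix moved from 0.34 to 0.0010.

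CLK2 (chromosome 1, 155262868 to 155278491) and CLK3 (chromosome 15, 74598500 to 74645414) stood close to the vehicle at low dose. CLK2 had 32.3, 29.3 and 30.5 CPM in the vehicle and 26.4 to 33.0 CPM in the low-dose libraries, so the ranges overlapped, and its log2 differences were -0.14 to 0.02. CLK3 had 51.2, 52.4 and 54.2 CPM in the vehicle and 52.3 to 58.8 CPM at low dose, with log2 differences of 0.04 to 0.10. With the outlying library CLK3 in Saposhnikoviae Radix Low stood 0.22 above the vehicle.

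Over all 36 members, calls at low dose (edgeR quasi-likelihood F-test, adjusted p under 0.05) are set beside the share of all genes called and nothing is read from them, because CLK1 in these contrasts chose the set. Polygalae Radix Low had 4 members called (10% of all genes), Aucklandiae Radix 5 (4.98%), Menthae Herba 9 (9.45%), Saposhnikoviae Radix 11 (11.5%), Saengmaek-san 11 (18%), Guibi-tang 6 (6.01%) and Soyo-san 7 (9.79%). All of these contrasts share the same 3 vehicle libraries. The count of members called higher in 7 of 7 extracts was 2, CLK1 and RBM5, beside 0.954% of all genes.

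Described by size alone, the other members differed less from the vehicle at low dose than CLK1 and CLK4 did. RBM5, a splicing factor known for its part in apoptosis gene splicing, had 44.4, 43.2 and 44.3 CPM in the vehicle and log2 differences of 0.17 to 0.26. HNRNPDL, an hnRNP D relative, had differences of 0.18 to 0.24, the SR protein gene SRSF5 of 0.13 to 0.23, CIRBP of 0.03 to 0.21, SRSF8 of 0.08 to 0.19 and SON, the large speckle scaffold, of 0.09 to 0.18. On the other side of 0 were HNRNPC, which binds uridine tracts (-0.19 to -0.11), LUC7L (-0.22 to -0.14), HNRNPD (-0.22 to -0.13) and TRA2A (-0.20 to -0.02).

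**Figure D2:**
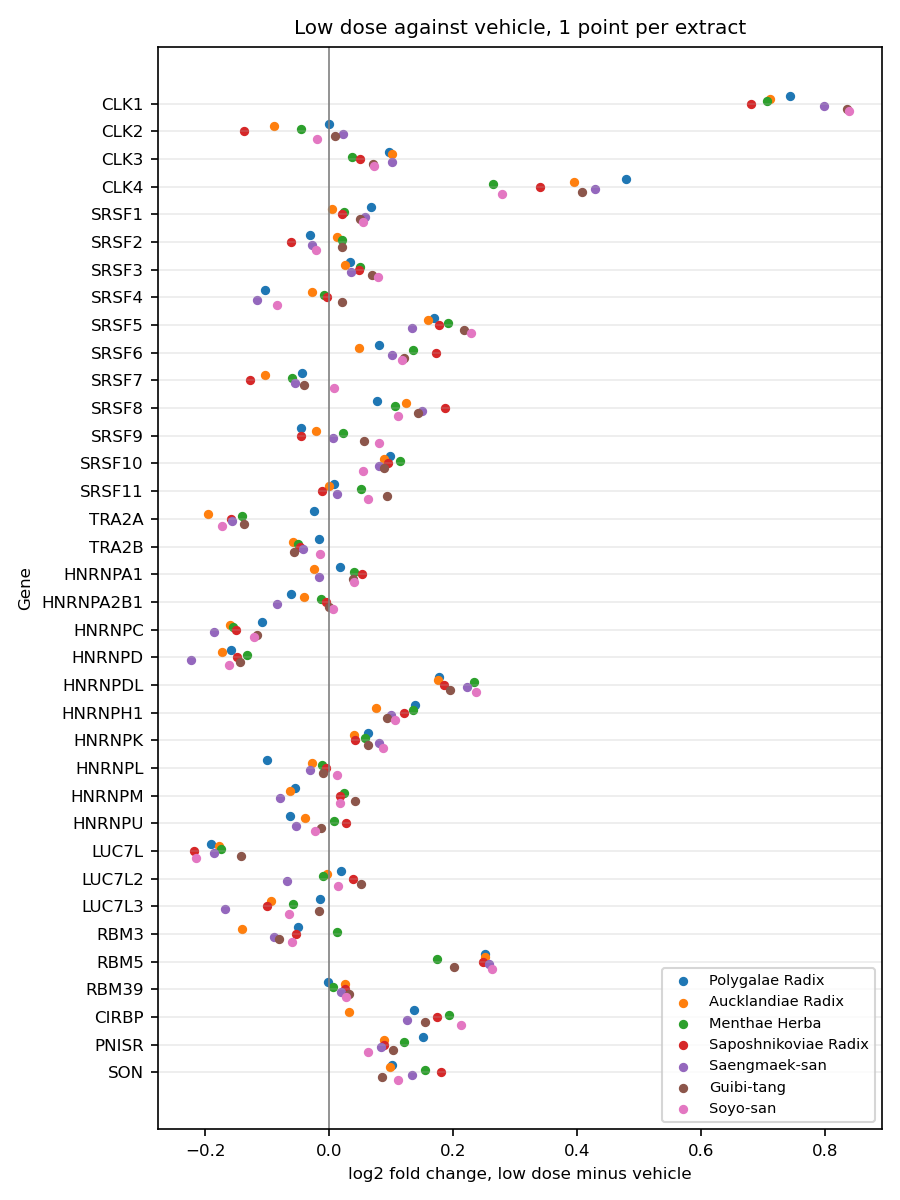
Log2 difference of each low-dose group from the vehicle (x axis) for the 36 members (y axis), with 1 point per extract. The CLK1 points lie at 0.68 to 0.84, those of CLK4 at 0.27 to 0.48, and those of every other member between -0.22 and 0.26.

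The vehicle differs from the extracts in more than the treatment. Its libraries carry a set name of their own, so extract and library set cannot be told apart in any comparison with it. Replicate 1 of the vehicle was the lowest of the 3 for 29 of the 36 members and over 10% below both others for 10 of them, most of all LUC7L3 (147, 194 and 204 CPM) and PNISR (105, 138 and 135 CPM). For CLK1 that library (29.9 CPM) was close to replicate 3 (31.1 CPM). Of 18 heat shock genes, between 10 and 13 were called lower than the vehicle in each low-dose group and 0 higher, with medians of -0.31 to -0.24 on the log2 scale. The share of all genes called there, in both directions together, was 4.98% (Aucklandiae Radix) to 18% (Saengmaek-san). The part of the heat shock genes in the CLK1 difference was not tested.

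At Medium and High the differences from the vehicle, which again share its libraries and are described only, kept CLK1 higher. Its log2 differences were 0.51 to 0.79 at Medium and 0.54 to 0.77 at High. At Medium the members called numbered 7 in Polygalae Radix (10.1% of all genes), 7 in Aucklandiae Radix (13.5%), 8 in Menthae Herba (10.1%), 6 in Saposhnikoviae Radix (3.69%), 7 in Saengmaek-san (11.4%), 8 in Guibi-tang (11%) and 6 in Soyo-san (8.56%). At High they numbered 19 in Polygalae Radix (36.5%), 28 in Aucklandiae Radix (62%), 18 in Menthae Herba (28.2%), 7 in Saposhnikoviae Radix (10.2%), 9 in Saengmaek-san (12%), 13 in Guibi-tang (29.4%) and 10 in Soyo-san (17.7%). In Aucklandiae Radix High 23 of the 28 were lower (31% of all genes), down to HNRNPA1 at -1.02, and in Menthae Herba High 16 of the 18 were higher (13.7%).

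Whether members moved between the medium and the high dose of an extract was tested by contrasts of those 2 groups alone. The low-dose and vehicle libraries, on which the choice of CLK1 rests, do not enter these contrasts. They stayed in the fit, and so in the shared estimate of spread, the scaling and the filter on low counts. The members were chosen with earlier results of these data known, so the Medium and High libraries are not wholly independent of the choice. In Aucklandiae Radix, 17 members fell and 2 rose from Medium to High (edgeR quasi-likelihood, adjusted by Benjamini-Hochberg), with a median log2 difference of -0.17 against -0.01 over all genes. This dose step called 55.2% of all genes, 26.8% lower and 28.4% higher. The 19 of 36 members called are near the share of all genes, but 17 of the 19 were lower. Of the 11 SR protein genes 7 fell, of the 10 hnRNP genes 6, and both TRA2 genes fell. Other values moved with this step. Mitochondrial genes took 6.52% and 6.19% of the counts at High, the lowest shares of the libraries kept, against 9.50% and 9.61% at Medium. Of the 9 HT29 epithelium markers 3 rose and 3 fell, between -1.72 and 1.10 on the log2 scale, and CD68 rose by 2.45. Their part in the members' changes was not tested.

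HNRNPA1 (chromosome 12, 54280193 to 54287088) showed the deepest fall. Its Aucklandiae Radix Medium libraries had 1126 and 1152 CPM and its High libraries 635 and 610 CPM, with no overlap. The log2 difference was -0.87 ± 0.06 SE (adjusted p 1.45e-17, edgeR). Its 74 same-named pseudogenes, among which reads could be divided, held 0.736% to 1.97% of the summed counts in any library. HNRNPC fell from 568 and 571 CPM to 340 and 320 CPM, by -0.79 ± 0.05 (adjusted p 4.25e-17). SRSF1, the founding SR protein, which helps to define exons, fell from 373 and 371 CPM to 280 and 269 CPM, by -0.44 ± 0.04 (adjusted p 4.68e-13). SRSF2, another SR protein that binds exonic enhancers, fell from 378 and 366 CPM to 270 and 262 CPM, by -0.48 ± 0.05 (adjusted p 2.06e-12). The High libraries were lower than the Medium libraries in each of these 4 genes, which is likely for genes already called and adds nothing to the calls.

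HNRNPL, which binds CA repeats, fell from 395 and 400 CPM to 326 and 313 CPM (log2 -0.32 ± 0.05 SE, adjusted p 1.29e-07, edgeR). SRSF10, an SR protein that acts as a repressor when dephosphorylated, fell from 263 and 256 CPM to 202 and 209 CPM (-0.34 ± 0.06, adjusted p 2.42e-06). PNISR, an arginine-serine-rich speckle protein, was called lower at -0.55 ± 0.10. The other calls downward were HNRNPD, TRA2A, LUC7L2, SRSF5, SRSF8, SRSF6, HNRNPK, HNRNPU, SRSF3 and TRA2B, between -0.28 and -0.17. HNRNPU lost its call without High replicate 2 or Medium replicate 2, and SRSF3 and SRSF6 theirs without High replicate 3. SRSF4, SRSF7, SRSF9 and SRSF11 did not pass, nor did HNRNPA2B1, HNRNPDL, HNRNPH1 and HNRNPM.

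CLK3 was the sole CLK gene called in any Medium to High step. It rose in Aucklandiae Radix from 52.8 and 53.6 CPM to 62.6 and 63.8 CPM, by 0.25 ± 0.06 SE (log2, adjusted p 0.000247, edgeR). In Polygalae Radix it had 61.4 and 55.5 CPM at Medium and 64.9 and 60.7 CPM at High, which overlap (0.10 ± 0.06, adjusted p 0.24). CLK2 had 27.8 and 29.5 CPM at Aucklandiae Radix Medium and 26.9 and 23.6 CPM at High (-0.18 ± 0.09, adjusted p 0.0854), but was called at -0.27 without High replicate 2 (adjusted p 0.0394) and at -0.20 when the 2 groups were fitted alone (adjusted p 0.0286). CLK1 did not pass in any of the 7 extracts in the fit of all groups, with log2 differences from -0.13 to 0.21, nor did CLK4, from -0.09 to 0.14. The largest CLK1 step was in Saposhnikoviae Radix, from 42.2, 48.0 and 46.7 CPM to 55.9, 52.7 and 49.97 CPM without overlap (0.21 ± 0.06, adjusted p 0.175). It passed without Medium replicate 2 (0.25, adjusted p 0.0488) and without the filter on low counts (0.21, adjusted p 0.0464). In Guibi-tang CLK1 had 53.4, 50.9 and 53.0 CPM at Medium and 46.7, 47.7 and 49.6 CPM at High (-0.13 ± 0.06, adjusted p 0.216), and passed when the 2 groups were fitted alone (adjusted p 0.0483).

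In Polygalae Radix 1 member rose and 7 fell from Medium to High, where 18.8% of all genes were called (6.81% higher and 12% lower), and 6 of the 7 were hnRNP genes. Of the 9 HT29 epithelium markers 7 fell in this step (median log2 -0.43) and 0 rose, and their part in it was not tested. HNRNPM (chromosome 19, 8444767 to 8489114), which binds GU-rich intronic silencers, had 290 and 273 CPM at Medium and 177 and 162 CPM at High. This was a log2 difference of -0.73 ± 0.06 SE (adjusted p 7.66e-13, edgeR). HNRNPK, which binds C-rich RNA, went from 689 and 673 CPM to 501 and 507 CPM (-0.43 ± 0.03, adjusted p 1.87e-13). HNRNPU, a nuclear scaffold protein, went from 768 and 754 CPM to 567 and 551 CPM (-0.44 ± 0.06, adjusted p 1.89e-07). HNRNPC went from 561 and 540 CPM to 424 and 427 CPM (-0.37 ± 0.05, adjusted p 3.52e-07). HNRNPA2B1, a relative of HNRNPA1, went from 1649 and 1568 CPM to 1335 and 1259 CPM (-0.31 ± 0.07, adjusted p 0.00115). None of these 5 overlapped between the doses. With 2 libraries per dose, genes already called will mostly not overlap, so this adds nothing to the calls.

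HNRNPH1, which binds G-rich runs, also passed (-0.16 ± 0.05 SE, adjusted p 0.0302, edgeR), as did RBM3, given below. LUC7L3 rose from 173 and 180 CPM to 208 and 216 CPM (0.26 ± 0.09, adjusted p 0.0429). The calls of HNRNPH1 and LUC7L3 were each lost without Polygalae Radix Medium replicate 2, Medium replicate 3, High replicate 2 or High replicate 3. HNRNPA1, the deepest fall in Aucklandiae Radix, had 1360 and 1326 CPM at Polygalae Radix Medium and 1333 and 1288 CPM at High. None of the 11 SR protein genes passed, with differences from -0.08 to 0.11.

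**Figure D3:**
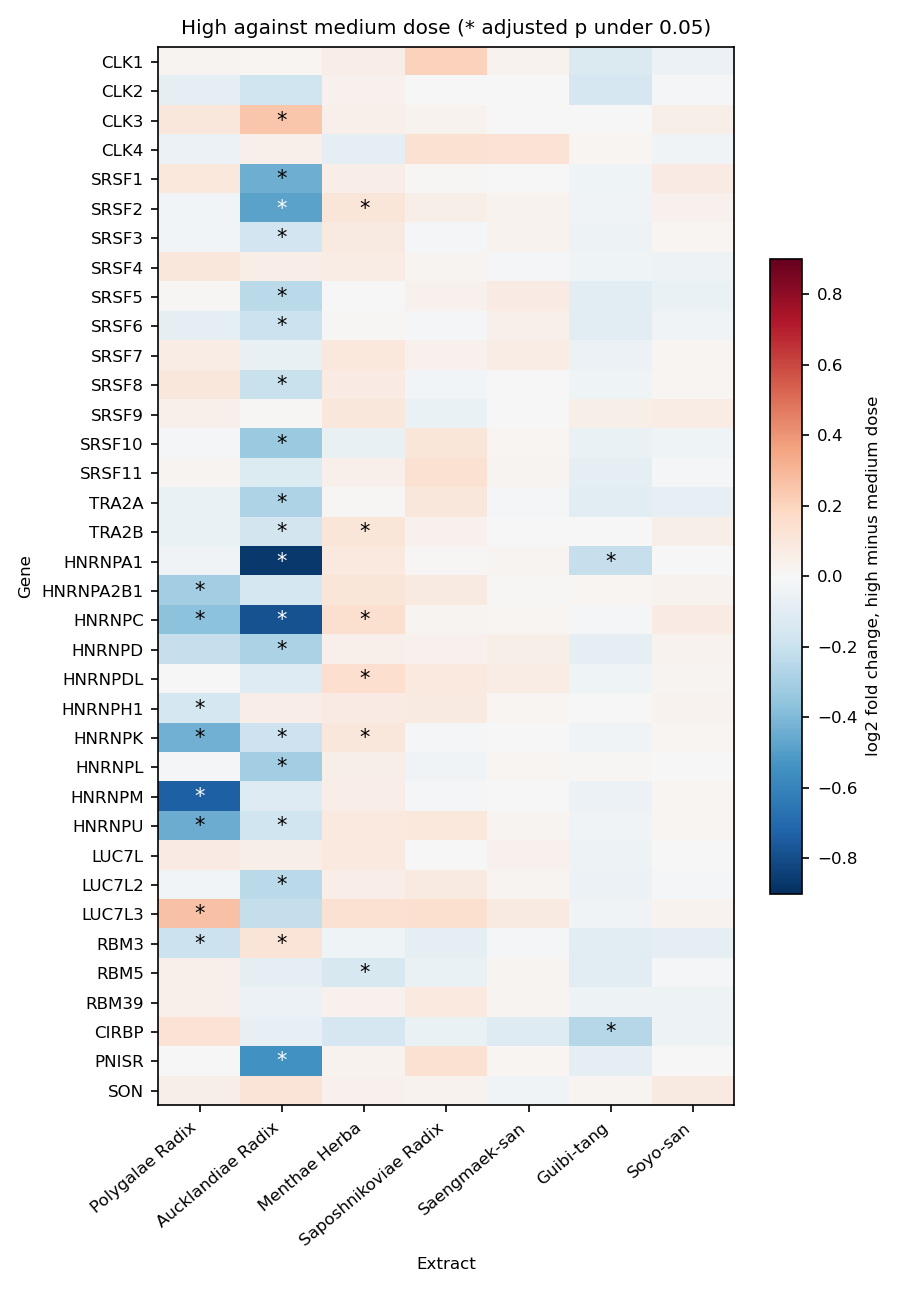
Log2 difference of High from Medium (colour, blue lower and red higher) for the 36 members (y axis) in each of 7 extracts (x axis), with an asterisk where adjusted p is under 0.05. Aucklandiae Radix has 19 asterisks, Polygalae Radix 8, Menthae Herba 6 and Guibi-tang 2, and the remaining 3 extracts have none.

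In Menthae Herba 5 members rose and 1 fell from Medium to High, by small amounts, and 30 did not pass (13.8% of all genes called, 6.48% higher and 7.33% lower). HNRNPK rose from 769, 741 and 769 CPM to 804, 819 and 819 CPM (log2 0.10 ± 0.03 SE, adjusted p 0.0129, edgeR). HNRNPC rose from 619, 594 and 589 CPM to 665, 642 and 684 CPM (0.14 ± 0.04, adjusted p 0.016). TRA2B, an SR-like splicing activator, rose from 242, 232 and 236 CPM to 254, 254 and 256 CPM (0.11 ± 0.03, adjusted p 0.0321). HNRNPDL (0.15 ± 0.05) and SRSF2 (0.11 ± 0.04) also passed, and RBM5 fell from 51.0, 48.2 and 51.7 CPM to 44.9, 44.8 and 47.1 CPM (-0.14 ± 0.04, adjusted p 0.00658). In each of these genes the doses did not overlap, which is likely for genes already called and adds nothing to the calls. The count of 6 rests on single libraries. Leaving out High replicate 1 or 2 gave 3 members, High replicate 3 gave 2, and Medium replicate 2 or 3 gave 1.

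In Guibi-tang 2 members fell, where 12.5% of all genes were called and 6.11% were lower. HNRNPA1 went from 1296, 1282 and 1222 CPM to 1130, 1127 and 1035 CPM (log2 -0.21 ± 0.05 SE, adjusted p 0.000906, edgeR), and CIRBP is given below. In Saposhnikoviae Radix, Saengmaek-san and Soyo-san 0 members passed with edgeR and 0 with DESeq2, where edgeR called 0.283%, 0.194% and 0.701% of all genes. At an unadjusted p under 0.05 they had 5, 1 and 0 members. The Saposhnikoviae Radix count was 2 without Medium replicate 2. Medium replicate 1 of that extract was over 10% below both of its group mates in 8 members, such as PNISR (96.2, 135 and 137 CPM), CLK4 (9.30, 12.7 and 12.2 CPM) and LUC7L3 (138, 177 and 164 CPM).

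The cold-induced proteins RBM3 and CIRBP, which bind RNA and are made in greater amounts in mild cold, were called in different dose steps. RBM3 (chromosome X, 48574449 to 48579066) had 197, 219 and 200 CPM in the vehicle. In Polygalae Radix it fell from 192 and 190 CPM at Medium to 172 and 162 CPM at High (log2 -0.20 ± 0.05 SE, adjusted p 0.00245, edgeR). In Aucklandiae Radix it rose from 172 and 174 CPM to 193 and 182 CPM (0.12 ± 0.05, adjusted p 0.0386). The Aucklandiae Radix call was lost when High replicate 2, Medium replicate 2 or Medium replicate 3 was left out, and that of Polygalae Radix without High replicate 3. Both calls were also lost when the 2 groups of each step were fitted alone, and that of Aucklandiae Radix without the filter on low counts. In the fit of all groups the difference between these 2 steps was itself past the threshold (-0.31 ± 0.07, adjusted p 0.000198, edgeR).

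CIRBP (chromosome 19, 1259384 to 1274880) had 44.6, 43.2 and 40.2 CPM in the vehicle. In Guibi-tang it fell from 45.9, 44.5 and 43.5 CPM at Medium to 39.2, 38.2 and 34.8 CPM at High without overlap (log2 -0.26 ± 0.06 SE, adjusted p 0.000901, edgeR). In Polygalae Radix it had 50.9 and 43.3 CPM at Medium and 54.9 and 48.5 CPM at High, which holds the highest library of that gene, and did not pass. CIRBP overlaps the antisense gene CIRBP-AS1, and without a stated strand setting reads of such pairs cannot be told apart.

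Pairs of extracts whose libraries carry the same set number were compared directly. At High, Polygalae Radix (380 µg/mL) differed from Aucklandiae Radix (370 µg/mL) in 29 members, 23 higher and 6 lower (58.3% of all genes called, 28.9% higher and 29.4% lower). HNRNPA1 had 1333 and 1288 CPM in Polygalae Radix and 635 and 610 CPM in Aucklandiae Radix, a log2 difference of 1.07 ± 0.06 SE, or 2.11-fold (adjusted p 1.05e-20, edgeR). HNRNPM differed the other way, with 177 and 162 CPM against 274 and 269 CPM (-0.68 ± 0.06, adjusted p 5.12e-13). SRSF1 (0.54 ± 0.04, adjusted p 6.34e-16), SRSF2 (0.48 ± 0.05, adjusted p 2.54e-12) and HNRNPL (0.41 ± 0.05, adjusted p 2.72e-10) were higher in Polygalae Radix and HNRNPK (-0.34 ± 0.03, adjusted p 1.35e-11) was lower. By class, 9 of 11 SR protein genes were higher and 0 lower, and the 10 hnRNP genes split into 5 higher and 5 lower. The SR count rests in part on 1 library: without Aucklandiae Radix High replicate 3 the calls of SRSF3, SRSF4, SRSF6, SRSF7 and SRSF8 were lost, which leaves 4 of 11, and that of SRSF4 was also lost with DESeq2. Among the hnRNP genes HNRNPA2B1 and HNRNPD lost their calls without some single libraries. Among the CLK genes CLK2 differed, with 31.5 and 33.8 CPM against 26.9 and 23.6 CPM (0.37 ± 0.09, adjusted p 0.000386), while CLK1 (0.08 ± 0.08), CLK3 (-0.01 ± 0.06) and CLK4 (-0.03 ± 0.11) did not pass.

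**Figure D4:**
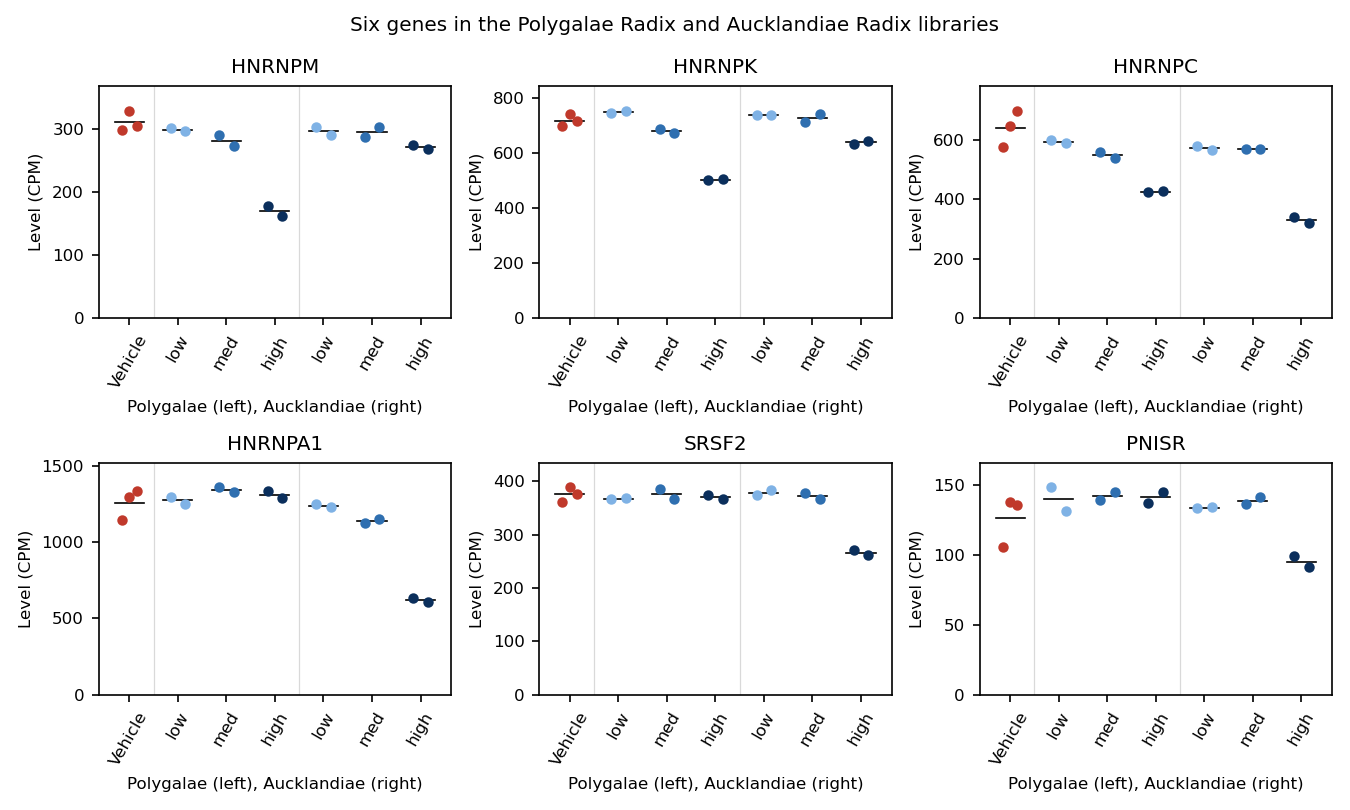
Level in CPM (y axes, from 0) of HNRNPM, HNRNPK, HNRNPC, HNRNPA1, SRSF2 and PNISR in each library (points) of the vehicle and of Polygalae Radix and Aucklandiae Radix at the 3 doses (x axis), with a line at each group mean. HNRNPA1 stands at 635 and 610 CPM in Aucklandiae Radix High, and HNRNPM at 177 and 162 CPM in Polygalae Radix High.

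At Medium the same pair (76 and 74 µg/mL) differed in 4 members, all higher in Polygalae Radix (10.1% of all genes called, 4.93% higher). They were CIRBP (log2 0.28 ± 0.07 SE, adjusted p 0.003), HNRNPA1 (0.24 ± 0.06, adjusted p 0.0023), CLK2 (0.27 ± 0.09, adjusted p 0.0337) and RBM3 (0.14 ± 0.05, adjusted p 0.0477, all edgeR). CLK2 had 35.8 and 33.4 CPM against 27.8 and 29.5 CPM. The count was 1 without Polygalae Radix Medium replicate 2 or Aucklandiae Radix Medium replicate 3, and 2 without Aucklandiae Radix Medium replicate 2. CLK2 lost its call without each of these 3 libraries, CIRBP without Polygalae Radix Medium replicate 2 or Aucklandiae Radix Medium replicate 3, and RBM3 without any 1 of the 4 libraries.

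Menthae Herba and Saposhnikoviae Radix at High (500 µg/mL each) differed in 6 members, 5 higher and 1 lower in Menthae Herba (16.1% of all genes called, 8.08% higher and 8.03% lower). HNRNPK had 804, 819 and 819 CPM against 755, 746 and 761 CPM (log2 0.11 ± 0.03 SE, adjusted p 0.00445, edgeR). HNRNPC (0.14 ± 0.04), TRA2B (0.11 ± 0.03), SRSF1 (0.09 ± 0.03) and SRSF9 (0.14 ± 0.05) were also higher, and CIRBP was lower (-0.16 ± 0.05). The count fell to between 1 and 3 without Menthae Herba High replicate 2 or 3 or Saposhnikoviae Radix High replicate 1, 2 or 3. Saengmaek-san and Guibi-tang at High (500 µg/mL each) differed in 4 members, all higher in Saengmaek-san (12.8% of all genes called, 6.38% higher). HNRNPA1 had 1358, 1274 and 1268 CPM against 1130, 1127 and 1035 CPM (0.24 ± 0.05, adjusted p 9.19e-05). RBM3 had 205, 195 and 206 CPM against 171, 175 and 176 CPM (0.21 ± 0.04, adjusted p 9.84e-05). CIRBP (0.23 ± 0.06, adjusted p 0.00322) and SRSF6 (0.15 ± 0.05, adjusted p 0.016) also passed. The count of 4 was 8 with DESeq2, 9 with only these groups fitted and 7 with the replicate number as a block. CIRBP lost its call without Guibi-tang High replicate 3, and SRSF6 without Guibi-tang High replicate 2 or 3 or Saengmaek-san High replicate 1. CLK1 missed the threshold in the fit of all groups, with 54.2, 55.3 and 54.1 CPM against 46.7, 47.7 and 49.6 CPM (0.18 ± 0.06, adjusted p 0.0504). At Medium (100 µg/mL) these 2 pairs had 0 members called by edgeR and 0 by DESeq2, with 2 and 1 at an unadjusted p under 0.05, where edgeR called 0.0353% and 0.0648% of all genes.

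Whether the step from Medium to High itself differed between the extracts of a pair was tested for CLK1 to CLK4. None of the 12 differences passed with edgeR, where 43.7% of all genes did for Polygalae Radix and Aucklandiae Radix (20.1% above 0 and 23.6% below), 2.87% for Menthae Herba and Saposhnikoviae Radix and 3.61% for Saengmaek-san and Guibi-tang (1.55% above 0). For CLK1 they were 0.0044 ± 0.11 SE (Polygalae Radix minus Aucklandiae Radix), -0.15 ± 0.09 (Menthae Herba minus Saposhnikoviae Radix) and 0.16 ± 0.09 (Saengmaek-san minus Guibi-tang) on the log2 scale, so the step of CLK3 that passed in Aucklandiae Radix alone is not shown to differ from that in Polygalae Radix (-0.15 ± 0.08, adjusted p 0.142).

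Other genes of the splicing machinery were called in the same dose steps, as were many genes outside it. Of all genes, 12% were lower and 6.81% higher in Polygalae Radix, 26.8% and 28.4% in Aucklandiae Radix, and 7.33% and 6.48% in Menthae Herba. In Aucklandiae Radix neither the core spliceosome genes nor the SR protein kinase list was called more often than all genes (55.2%). From Medium to High in Polygalae Radix, 18 of 40 core spliceosome genes fell and 1 rose (median log2 -0.18, against -0.01 over all genes), with PRPF8 at -0.88 ± 0.08 SE and SNRNP200 at -0.84 ± 0.06, the scaffold and the helicase of the U5 particle, and the GTPase EFTUD2 at -0.48 ± 0.04. In Aucklandiae Radix 12 of these 40 fell and 9 rose (median -0.04), with SNRPA, the U1 A protein, at -0.88 ± 0.07 and PRPF3, of the U4/U6 particle, at 0.56 ± 0.05. Of 47 other splicing regulators 26 fell and 4 rose in Aucklandiae Radix (median -0.19), those with the smallest adjusted p being KHDRBS1 (-0.80 ± 0.05), RBMX (-0.71 ± 0.05) and the epithelial regulator ESRP1 (-0.59 ± 0.04), and 10 fell and 2 rose in Polygalae Radix (median -0.01), with KHDRBS1 at -0.43 ± 0.05. Of 10 genes of SR protein kinases and related factors, 2 rose in Polygalae Radix, and in Aucklandiae Radix 3 rose, among them SRPK2 (0.25 ± 0.06), and 1 fell, SRPK1 (-0.17 ± 0.04). Both are kinases that phosphorylate SR proteins in the cytoplasm. In Menthae Herba 7 core spliceosome genes rose and 0 fell (median 0.09).

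Across the 24 extract-by-dose groups, the genes whose mean log2 level was most like that of CLK1 were no members. Among 10405 genes with a symbol and at least 5 CPM they were PELI1, an E3 ubiquitin ligase (r = 0.82), CNOT8, a deadenylase subunit (0.79), GTF2IRD2 (0.79), the integrin subunit ITGB8 (0.77) and SEPSECS, which makes selenocysteine (0.76). These Pearson coefficients are a description over 24 groups that share library sets and extracts, and carry no p. The most similar member was SRSF5 (0.59), and CLK4 ranked 433 with 0.52. The vehicle mean of PELI1 (79.5 CPM) lay within the range of its 24 group means (72.3 to 112 CPM), while that of SEPSECS (7.83 CPM) lay below its range (8.19 to 11.2 CPM), as that of CLK1 did.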

How the data were processed

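Libraries were made from HT29 RNA with a directional kit, per the labels' protocols. The deposited values are expected counts, made by the authors with RSEM (1.3.3) from STAR (2.7.3a) alignments to hg38, following Trim Galore (0.6.5) and FastQC (0.11.9), per the submitters' processing notes. Neither the annotation release nor the strand setting is given in the sources used here. Since 10% of the expected counts were not whole, all were rounded.

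Tests used the quasi-likelihood F-test of edgeR (4.0.16, R 4.3.3; two-sided), with TMM factors, filterByExpr on groups of 2 or 3 libraries and Benjamini-Hochberg adjustment over 16978 genes. A call means an adjusted p below 0.05. The fit took 59 of 60 libraries, with 25 coefficients and 34 residual degrees of freedom. Okbyeongpung-san entered with 1 library per dose and has no comparison of its own. SE is the log2 difference divided by the square root of F. DESeq2 1.42.0 was an alternative, beside other scaling, filtering, fitting and each library left out. The scripts were tested on simulated data. Positions and exon lengths come from GENCODE 29 on GRCh38, and promoters from RefSeq.

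The members and gene lists were chosen with earlier results of these data known. Values per library are given for CLK1 to CLK4, RBM3, CIRBP and, in each tested comparison, up to 6 further members called with the smallest adjusted p. A few others were named after their values were seen. From each other list up to 3 called genes could be named, and the 5 genes most like CLK1 were those with the highest Pearson r of log2 CPM (prior count 2). Of the members, 14 have same-named pseudogenes and 18 overlap a gene on the other strand, so their counts are uncertain to that extent.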

Additional observations from a re-analysis of the deposited data

Results flagged for a closer look

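The test of whether the step from Medium to High differed between the extracts of a pair, planned for CLK1 to CLK4, was also read for the other members after their values were seen (edgeR, adjusted over all genes). It passed for 17 of the 36 members between Polygalae Radix and Aucklandiae Radix, near the share of all genes that passed (43.7%). Of the members 12 were above 0 and 5 below, beside 20.1% and 23.6% of all genes. On the log2 scale, the step of Polygalae Radix minus that of Aucklandiae Radix was above 0 for HNRNPA1 (0.84), PNISR (0.54), SRSF1 (0.54), LUC7L3 (0.48), SRSF2 (0.46), HNRNPC (0.42), SRSF10 (0.33), SRSF8 (0.31), HNRNPL (0.30), SRSF5 (0.26), TRA2A (0.22) and LUC7L2 (0.22). It was below 0 for HNRNPM (-0.61), RBM3 (-0.31), HNRNPU (-0.27), HNRNPK (-0.25) and HNRNPH1 (-0.22). Of the SR protein genes 5 are in the first group and 0 in the second, and the hnRNP genes split into 3 and 4. RBM3 alone was called in opposite directions in the 2 extracts, and both calls were lost when the 2 groups of each step were fitted alone. Its Aucklandiae Radix call was lost when High replicate 2, Medium replicate 2 or Medium replicate 3 was left out. Between Saengmaek-san and Guibi-tang the test passed for HNRNPA1 (0.23), with 3.61% of all genes. Between Menthae Herba and Saposhnikoviae Radix it passed for 0 members, with 3 at an unadjusted p under 0.05 and 2.87% of all genes past the adjusted threshold.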

How the results depend on the processing

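With the outlying library included the Medium to High counts were 1 in Polygalae Radix (8 without it), 7 in Aucklandiae Radix (19), 0 in Menthae Herba (6) and 0 in Guibi-tang (2). The paired extracts at High gave 8 (29, Polygalae Radix against Aucklandiae Radix), 0 (6, Menthae Herba against Saposhnikoviae Radix) and 1 (4, Saengmaek-san against Guibi-tang), and Polygalae Radix against Aucklandiae Radix at Medium gave 0 (4). The differences of the steps gave 4 (17) and 0 (1). In Saposhnikoviae Radix Low against the vehicle CLK1 was 0.20, CLK3 0.22, CLK4 0.0010, RBM3 -0.15 and CIRBP 1.08. Without the filter on low counts Menthae Herba High minus Medium had 3 members, Saposhnikoviae Radix 1 (CLK1, 0.21) and Menthae Herba against Saposhnikoviae Radix at High 2. With only the groups compared the pairs at High gave 10 and 9 (6 and 4), the Medium pair gave 2 (4), CLK2 in Aucklandiae Radix passed at -0.20 and CLK1 in Guibi-tang at -0.13. DESeq2 gave 8 for Saengmaek-san against Guibi-tang at High (4). Leaving out each library in turn gave 1 to 6 members for Menthae Herba High minus Medium, 0 to 2 for Saposhnikoviae Radix, 1 to 6 for Menthae Herba against Saposhnikoviae Radix at High and 1 to 5 for the Medium pair of Polygalae Radix and Aucklandiae Radix, and -0.27 to -0.083 for CLK2 in Aucklandiae Radix and 0.16 to 0.25 for CLK1 in Saposhnikoviae Radix. The cause of these moves was not tested.

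Replicate numbers showed no strong pairing of the samples: over 34 same-number pairs the correlation of deviations ran from -0.04 to 0.12. The 2 above 0.1 were both Polygalae Radix High with Medium, where deviations in groups of 2 libraries mirror each other and give the same value. Within an extract every same-number pair of High and Medium was above 0, from 0.00078 to 0.12. A weak pairing is therefore not excluded. With the replicate number as a block, Saengmaek-san against Guibi-tang at High had 7 members (4 without the block), and every other count stayed within 1.5 times. No result changed direction while called under the alternatives run. Groups of 2 libraries limit the precision of Polygalae Radix, Aucklandiae Radix and Soyo-san, and left with 1 library such a group is assumed to vary like the others.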
